A study of Homo sapiens with 6 samples.

Results

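The RGS genes encode regulators of G protein signalling, and the 10 described here are RGS2, RGS3, RGS4, RGS5, RGS10, RGS12, RGS14, RGS16, RGS17 and RGS19, of 18132 genes measured. They were taken by symbol from the array's annotation, and 32 probe sets, the groups of array probes that read a transcript, carry exactly 1 of these symbols. The family was chosen by the log2 difference of RGS2, which was among the largest falls between the groups compared here. The differences of the 10 genes in that comparison are therefore a description and carry no p-value. The cells are labelled TPC-1, a human papillary thyroid carcinoma line, and received lentivirus with an shRNA (a short hairpin RNA that lowers its target transcript) against FAM60A or with a control shRNA. RNA of 3 samples with the FAM60A shRNA and 3 with the control shRNA was measured on 1 Affymetrix array each, and the design asks which transcripts differ between them. The design calls the samples independent, but no source says that they came from separate cultures, so their spread may be technical. The deposited values are log2 signals set relative to each probe set's median over the 6 arrays, so a value gives a difference between arrays and no level.

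G protein-coupled receptors switch on heterotrimeric G proteins by loading GTP onto the alpha subunit, which then acts on adenylyl cyclase, phospholipase C beta and other effectors. RGS proteins bind the active alpha subunit through a shared RGS domain and speed its GTP hydrolysis, which shortens the signal. Their subfamilies differ outside that domain: R4 proteins are mostly small, R12 proteins include multidomain scaffolds, and RZ proteins carry a cysteine string. In thyroid cells the TSH receptor signals through Gs and Gq. RGS2 is known for its preference for Gq, and most other members act on the Gi family.

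The promoters of RGS2 and RGS16 are shown because these genes had the largest fall and the largest rise of the family. Both windows span 250 bases before and 50 bases after the RefSeq transcript start on chromosome 1 of build GRCh38.p14, read 5′ to 3′ on the gene's strand. Capitals mark the core of the cAMP response element, TGACG or its reverse complement, the element that CREB factors bind. The RGS2 window is chr1:192808789-192809088 on the plus strand, and the RGS16 window is chr1:182604340-182604639 on the minus strand.
RGS2: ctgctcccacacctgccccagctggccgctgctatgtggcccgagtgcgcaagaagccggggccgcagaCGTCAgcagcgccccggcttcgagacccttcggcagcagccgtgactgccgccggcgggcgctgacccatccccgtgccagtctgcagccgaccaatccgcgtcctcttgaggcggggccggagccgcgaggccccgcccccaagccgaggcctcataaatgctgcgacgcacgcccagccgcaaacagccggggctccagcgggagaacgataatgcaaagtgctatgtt
RGS16: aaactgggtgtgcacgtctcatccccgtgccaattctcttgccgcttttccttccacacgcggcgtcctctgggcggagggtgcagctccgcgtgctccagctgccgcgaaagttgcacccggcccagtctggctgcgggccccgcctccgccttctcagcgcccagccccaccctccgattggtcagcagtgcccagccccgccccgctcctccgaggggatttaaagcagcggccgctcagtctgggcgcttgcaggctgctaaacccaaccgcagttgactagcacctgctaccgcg
RGS2 had 1 such core, which begins 181 bases before the transcript start, and RGS16 had 0. All 10 genes matched RefSeq windows, 24 in all because several genes have more than 1 start, and a core lay in windows of 4 genes, RGS2, RGS3, RGS4 and RGS12. Over all 27305 genes with windows 28.4% had one. By window, 5 of the 24 held a core, against 24.6% of all 35116 windows. The 10 genes have more windows per gene than genes at large, which raises their shares by gene. The GC box GGGCGG, searched on both strands, lay in windows of 8 of the 10 genes, against 48.3% of all genes, and was missing from RGS4 and RGS14. By window it lay in 12 of 24, against 45.0% of all windows. The CCAAT box, also searched on both strands, lay in windows of 5 of the 10 genes, against 39.7% of all genes, and RGS2 had 1 and RGS16 had 2. By window it lay in 6 of 24, against 34.6% of all windows. G and C made up 69.7% of the RGS2 window and 67% of the RGS16 window, and the median over all windows was 58.7%. A motif match describes these letters only.

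SINHCAF, the current symbol of FAM60A, was higher where the label says it was targeted. Its log2 values were 0.63, 0.57 and 0.60 in the arrays labelled FAM60A shRNA, against -0.58, -0.66 and -0.68 in those labelled control shRNA, a difference of 1.24 (SE 0.038; limma, adjusted p = 1.09e-06; two-sided exact permutation p = 0.1, the smallest that 3 against 3 arrays can give). The groups are therefore called FAM60A-labelled and control-labelled arrays below, and a rise or fall below does not follow from a loss of SINHCAF that these arrays show. Whether the labels of the groups were exchanged was not tested, and if they were, every difference below would have the opposite sign, so that RGS2 would be a rise. Of 31 probe sets of 11 thyroid markers, 20 lay in the lowest class of level, which held 16 of 17 control tags that have no target, and TSHR, the receptor for TSH, had all 3 of its probe sets there, whereas the thyroid factor PAX8 had 3 of 4 and thyroglobulin, TG, 2 of 3 above it. Of these 11 markers 1 fell, HHEX (-0.97), and 0 rose (9.09%, against 44.9% of all genes), and without control replicate 1 the number that passed was 2. The summed log2 value of the 11 was -0.63 to -0.50 in FAM60A-labelled arrays and 0.38 to 0.68 in control-labelled arrays, with HHEX included. Of 12 markers of intestinal epithelium 7 rose and 0 fell, where 19.8% of all genes were higher and 25% lower. Of the 23 probe sets of these markers 10 were in the lowest class, among them all those of VIL1, LGALS4, MUC2 and FABP1. The highest class held 4, the only ones of CDX2 and KRT20 and 2 of 4 of CDH17. The largest rises were those of ASCL2 (2.20), LGR5 (1.995), KRT20 (1.20), CDX2 (0.999) and CDH17 (0.82), and the only probe set of ASCL2 had no class. The other rises were those of MUC2 (0.18) and LGALS4 (0.16). The summed log2 value of the 12 markers was 3.88 to 3.94 in FAM60A-labelled arrays and -4.44 to -3.71 in control-labelled arrays. Intestinal markers bear on the samples because the extraction protocol names DLD1, a colorectal cancer line, in place of TPC-1. Of 15 leukocyte markers 2 rose, CD68 and CD79A (13.3%, against 44.9% of all genes), with 1 left when control replicate 1 or FAM60A replicate 2 was left out. The summed value of the 15 was 0.075 to 0.56 in FAM60A-labelled arrays and -0.69 to 0.19 in control-labelled arrays. Of 10 markers of pericytes and smooth muscle, cells known for RGS5, 1 rose, KCNJ8, and 1 fell, ACTA2 (20%, against 44.9% of all genes). The fall of ACTA2 lost its call with the median of its probe sets (-0.07), and its sign depended on the probe sets used. The summed value of the 10 ran from -0.40 to 0.57 in FAM60A-labelled arrays and from -0.57 to 0.38 in control-labelled arrays. The part of any of these marker differences in the RGS values was not tested. In bulk RNA, fewer cells of a kind and less RNA per cell cannot be told apart.

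The RGS genes went in opposite directions in the FAM60A-labelled arrays. RGS16, RGS10 and RGS3 were higher and RGS2, RGS19 and RGS5 lower past the threshold, an adjusted p under 0.05 in the fit over all genes, and RGS4, RGS12, RGS14 and RGS17 did not pass. That is 6 of 10 members, where 44.9% of all genes passed, and nothing is read from that share because the family was chosen on this comparison. Of the 10, 3 were higher, against 19.8% of all genes, and 3 were lower, against 25% of all genes. The same 6 had no overlap between the groups, as did 53.2% of all genes. The median difference of the 10 members was 0.03 on the log2 scale, and that of all genes was -0.01. In absolute size the median was 0.26 for the members and 0.12 for all genes, and 6 of 10 members lay above the median of all genes.

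**Figure D1:**
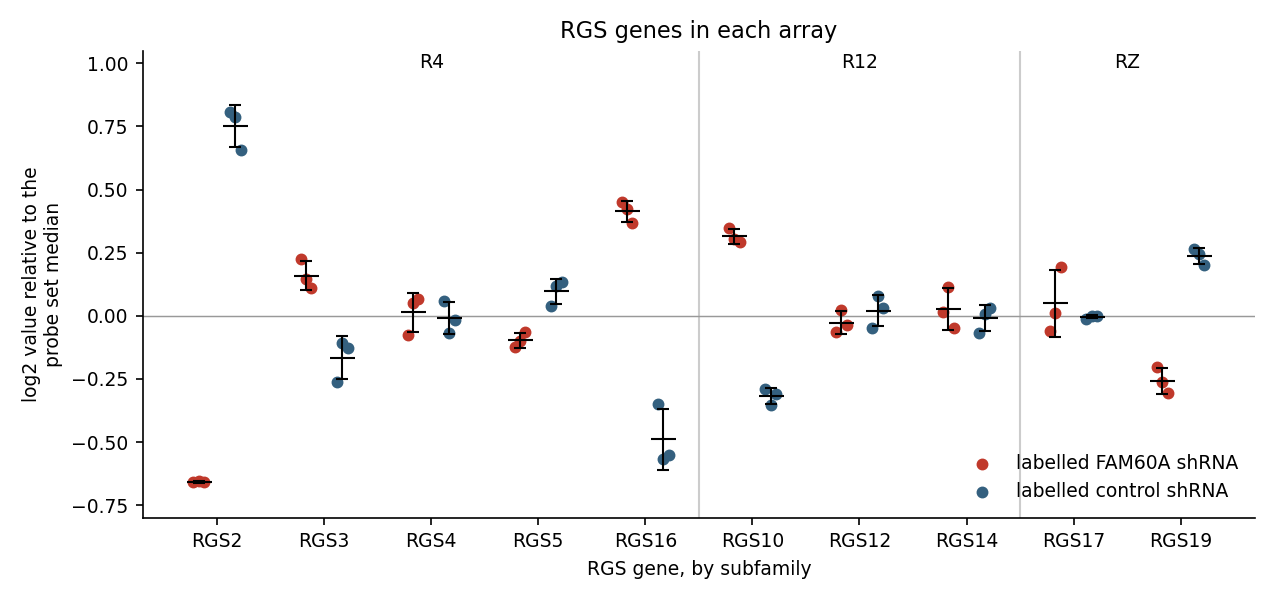
Log2 value of each RGS gene, as the mean of its probe sets relative to the probe set median over the 6 arrays, by subfamily. Points are the 3 arrays labelled FAM60A shRNA (left of each pair) and the 3 labelled control shRNA (right), with the mean and SD as bars. RGS2 is separated most, with -0.66 against 0.75, followed by RGS16 with 0.41 against -0.49.

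RGS2, a small R4 protein that curbs Gq signalling and is itself induced by cAMP and calcium signals, had the largest fall of the family. Its log2 values were -0.66, -0.66 and -0.66 in FAM60A-labelled arrays, against 0.81, 0.79 and 0.66 in control-labelled arrays. All FAM60A-labelled arrays lay below all control-labelled arrays, and the SD was 0.0028 in FAM60A-labelled arrays and 0.083 in control-labelled arrays. Centring on the median sets the highest value of the lower group and the lowest of the higher group, where they do not overlap, at equal distances from 0, so the sign of a single value carries nothing. The difference was -1.41 (SE 0.046), a 2.65-fold lower signal, and with the groups as labelled it ranked 7 from the lowest among 18132 genes. The family was chosen by this fall, and the SE does not allow for that choice. RGS2 has 1 probe set, so no second reading of the transcript bears on its value. That probe set lay in the class of log2 levels from 4 to 8 before centring, a class read from the arrays with the lowest signal, here the 3 labelled FAM60A shRNA.

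RGS16, an R4 protein that acts on the Gi family and Gq, had the largest rise. Its gene values were 0.45, 0.42 and 0.37 in FAM60A-labelled arrays, against -0.35, -0.57 and -0.55 in control-labelled arrays. The groups did not overlap, and the difference was 0.90 (SE 0.062), a 1.87-fold higher signal. Its 4 probe sets did not move alike. Those numbered 11746705_a_at, 11720943_a_at and 11720944_at had differences of 1.46 (SE 0.14), 1.16 (SE 0.085) and 0.97 (SE 0.071), whereas 11760543_at had 0.02 (SE 0.061). The last one read -0.05, 0.08 and -0.01 in FAM60A-labelled arrays and 0.06, 0.01 and -0.11 in control-labelled arrays, so its groups overlapped. All 4 lay in the class from 4 to 8, so the reading without a difference was not in the lowest class. The gene mean therefore lies below the 3 readings that moved, and the probe set with the largest variance alone gives 1.46.

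RGS3, an R4 gene whose long forms add further domains to the RGS domain, was higher by 0.33 (SE 0.053). Its values were 0.22, 0.15 and 0.11 in FAM60A-labelled arrays, against -0.26, -0.11 and -0.13 in control-labelled arrays. The groups did not overlap in the gene mean, and 2 of its 4 probe sets passed, at 0.57 and 0.44, where 41.4% of all probe sets with 1 symbol did. Another, at 0.30, had overlapping groups, and the one at -0.01 lay in the lowest level class. The probe set with the largest difference, 11758050_s_at, read 0.29, 0.29 and 0.26 in FAM60A-labelled arrays and -0.29, -0.26 and -0.33 in control-labelled arrays.

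RGS5, known as a pericyte gene, was lower by a small amount that 1 probe set carried. Its gene values were -0.12, -0.10 and -0.07 in FAM60A-labelled arrays, against 0.04, 0.12 and 0.13 in control-labelled arrays, a difference of -0.19 (SE 0.037). Of its 4 probe sets, 11722164_s_at had -0.61 (SE 0.077) and the others had -0.12, -0.05 and 0.0039. It read -0.33, -0.18 and -0.43 in FAM60A-labelled arrays and 0.18, 0.36 and 0.35 in control-labelled arrays, without overlap. Without probe sets named x_at or s_at, whose probes can match more than 1 transcript, RGS5 no longer passed and its difference was -0.08. RGS4, its neighbour on chromosome 1 and a brake on Gi and Gq signalling, had a difference of 0.02 (SE 0.052). Its values were -0.08, 0.05 and 0.07 in FAM60A-labelled arrays and 0.06, -0.07 and -0.01 in control-labelled arrays, with overlap, and 3 of its 4 probe sets lay in the lowest level class.

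In the R12 subfamily, RGS10 was higher and its multidomain relatives did not pass. RGS10, a small protein that acts on the Gi family and is best known from immune cells, had values of 0.35, 0.31 and 0.29 in FAM60A-labelled arrays, against -0.29, -0.35 and -0.31 in control-labelled arrays. The difference was 0.63 (SE 0.034), a 1.55-fold higher signal, without overlap, and the SD was 0.030 in FAM60A-labelled arrays and 0.032 in control-labelled arrays. Its 1 probe set lay in the class from 8 upward. RGS12, a scaffold that also binds Ras proteins, had a difference of -0.05 (SE 0.044) over 10 probe sets, which ran from -0.21 to 0.15. Its values were -0.07, 0.02 and -0.04 in FAM60A-labelled arrays and -0.05, 0.08 and 0.03 in control-labelled arrays, with overlap. Of those probe sets 2 were lower past the threshold, and the groups did not overlap in 5, as in 50.8% of all probe sets with 1 symbol. With the probe set of largest variance standing for the gene, RGS12 passed at -0.21. That variance runs over all 6 arrays, so the choice favours probe sets with a large group difference. RGS14, which like RGS12 pairs its RGS domain with Ras-binding and GoLoco domains, had 0.04 (SE 0.050). It read 0.02, 0.11 and -0.05 in FAM60A-labelled arrays and -0.07, 0.01 and 0.03 in control-labelled arrays, with overlap.

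In the RZ subfamily, RGS19 was lower. RGS19, also called GAIP and known to act on Gi proteins, had values of -0.20, -0.26 and -0.31 in FAM60A-labelled arrays, against 0.27, 0.25 and 0.20 in control-labelled arrays. The groups did not overlap, and the difference was -0.50 (SE 0.038), a 1.41-fold lower signal. Its 1 probe set lay in the class from 8 upward. RGS17, which acts on Gz and other Gi-family subunits, read -0.06, 0.01 and 0.20 in FAM60A-labelled arrays and -0.01, 0.0003 and -0.0003 in control-labelled arrays. The control-labelled values lay within the range of the others, and its 1 probe set lay in the lowest level class.

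**Figure D2:**
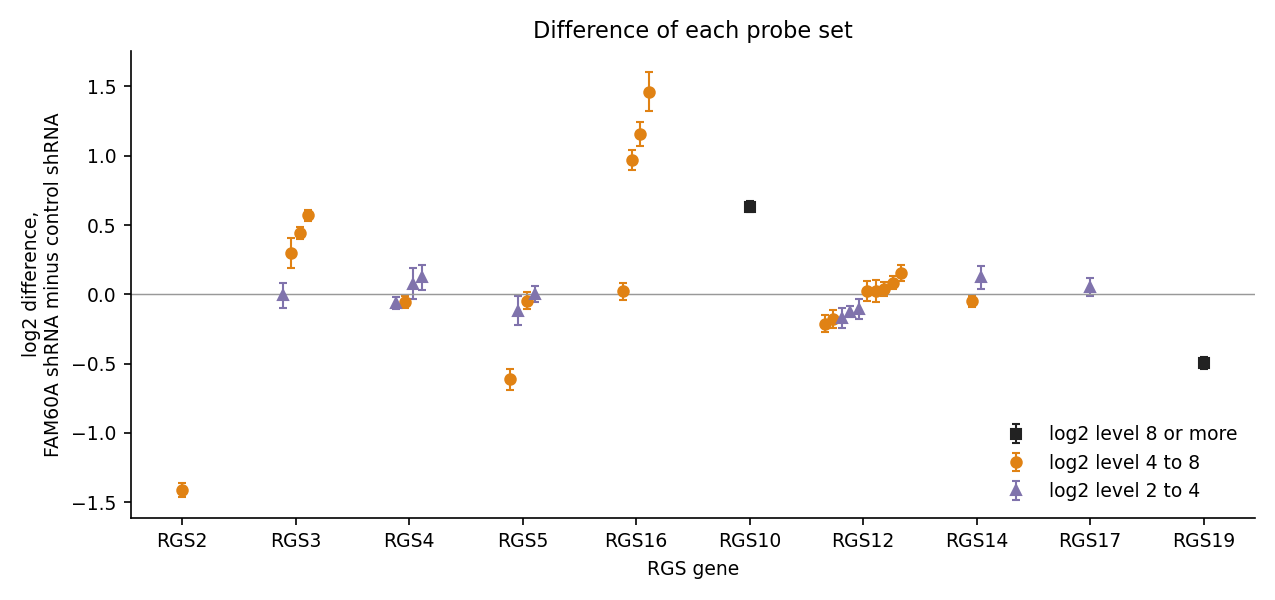
Log2 difference (FAM60A shRNA minus control shRNA, 3 arrays each) of every probe set of the 10 RGS genes, with SE bars; marker shape and colour give the class of the log2 level before centring. Probe sets of RGS16 lie at 1.46, 1.16, 0.97 and 0.02, and those in the class from 2 to 4 all lie within 0.17 of 0.

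The share of probe sets that passed went with the level class. Of the 32 probe sets 2 lay in the class from 8 upward, 19 in that from 4 to 8 and 11 in that from 2 to 4. Both probe sets of the highest class passed over all probe sets, as did 8 of 19 in the middle class and 1 of 11 in the lowest. Among all probe sets with 1 symbol 64.8%, 45.4% and 11.3% passed in these classes, so the RGS probe sets followed a gradient that the whole array had. The largest absolute difference was 0.63 in the highest class, 1.46 in the middle class and 0.17 in the lowest. RGS17 with its only probe set and RGS4 with 3 of 4 lay in that class, and their values do not show that these genes were unchanged.

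**Figure D3:**
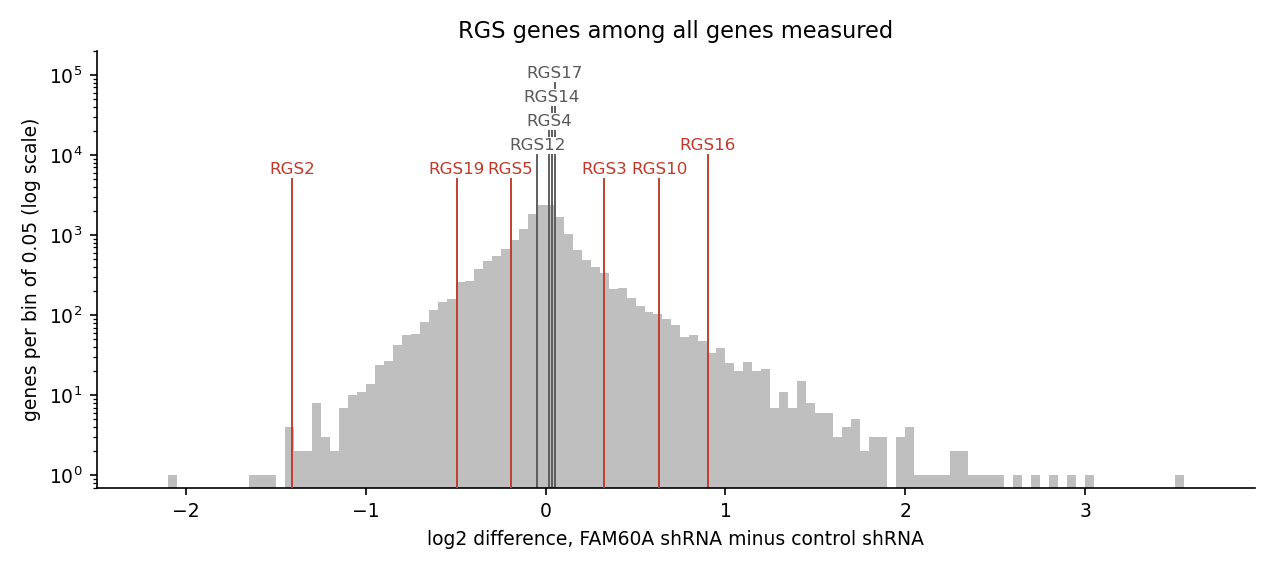
Number of genes by log2 difference (FAM60A shRNA minus control shRNA) in bins of 0.05, with a log scale for the counts, over 18132 genes. Lines mark the RGS genes, red for those past the threshold and grey for the others; RGS2 stands at -1.41 in the thin left tail and RGS16 at 0.90 on the right.

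The genes whose values were closest to those of RGS2 over the 6 arrays were IER3IP1, AQP11, SNX16, KLHL28 and BTF3L4. Likeness was the root mean square distance between the gene values, which was 0.055 on the log2 scale for IER3IP1 and between 0.081 and 0.098 for the other 4. Their differences were -1.37, -1.27, -1.41, -1.42 and -1.57. With 2 groups of 3 arrays this measure mostly finds genes with a fall of the same size.

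RGS2 is the last of a row of RGS genes on chromosome 1 that runs RGS18, RGS21, RGS1, RGS13 and RGS2 in RefSeq's order of coding genes. None of the other 4 passed (limma), with differences of -0.12, -0.10, 0.0054 and -0.04, but the lowest level class held all 6 of their probe sets, where a fall may not be visible. UCHL5, a deubiquitinase and the coding gene on the other side of RGS2, fell by 0.23 (SE 0.029; limma, adjusted p = 4.65e-04) over 9 probe sets. RGS16 lies next to RGS8, which had a difference of 0.15 (SE 0.061) and did not pass (adjusted p = 0.089). NUF2, a kinetochore gene next to RGS5, fell by 0.72 (SE 0.062; adjusted p = 7.44e-05). RGS19 lies next to OPRL1, the nociceptin receptor, which couples to the Gi family and fell by 0.26 (SE 0.087; adjusted p = 0.047). On its other side TCEA2, a transcription elongation factor, rose by 0.28 (SE 0.034; adjusted p = 4.46e-04). Next to RGS3, C9orf43 rose by 0.22 (SE 0.051; adjusted p = 0.0094), with its 1 probe set in the lowest class, and ZNF618 fell by 0.27 (SE 0.033; adjusted p = 4e-04). ZNF618 lost its call with the probe set of largest variance (-0.37). Of the 17 neighbouring coding genes measured 2 rose and 4 fell, where 44.9% of all genes passed. The call of OPRL1 was lost without control replicate 2 or 3 or FAM60A replicate 1 or 3 (-0.28 to -0.18). It was also lost with another quantile normalization (-0.27) and with the median of the probe sets (-0.26). Without the lowest level class, which held 1 of its 2 probe sets, OPRL1 had -0.10 and did not pass.

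The other RGS genes were mostly at the low end of the signal. Of 11, 0 rose and 1 fell, RGS22 at -0.17 (SE 0.047; limma, adjusted p = 0.023), where 44.9% of all genes passed. The fall of RGS22 lost its call without control replicate 1 (-0.13) and without FAM60A replicate 1 (-0.17) or replicate 2 (-0.14). Over the alternatives 0 to 3 of the 11 passed, with 3 when the probe set of largest variance stood for the gene, a choice that favours large group differences. In 7 of these 11 genes the lowest level class held every probe set, among them all 5 of the R4 subfamily, against 1 of the 10 described above, RGS17. The R7 genes RGS6, RGS7, RGS9 and RGS11, which work bound to the G protein beta subunit GNB5, had differences between -0.02 and 0.06, and GNB5 itself fell by 0.34 (SE 0.044; adjusted p = 5.61e-04). Of the 17 probe sets of these R7 genes, 11752774_a_at of RGS6 was lower (-0.34, SE 0.056) and 11723133_at of RGS9 higher (0.26, SE 0.054) past the threshold. The groups did not overlap in either, and the other probe sets did not pass. Of all probe sets with 1 symbol 41.4% passed and 50.8% had no overlap. The lowest level class held 10 of the 17, among them 11752774_a_at, and 11.3% of all probe sets in that class passed. Of 9 other proteins with an RGS or RGS homology domain 4 rose and 2 fell (66.7%, against 44.9% of all genes), and AXIN2, the scaffold of beta-catenin destruction and a Wnt target, rose by 1.07 (SE 0.045; adjusted p = 3.34e-06). ARHGEF1, an exchange factor that G13 activates, rose by 0.32, the sorting nexin SNX13 rose by 0.28, and the kinase A anchor AKAP10 fell by 0.24. AKAP10 lost its call with the probe set of largest variance (-0.25).

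The alpha subunits are what RGS proteins act on. Of 16 measured 5 rose and 3 fell, which is 50% past the threshold against 44.9% of all genes, with a median difference of 0.0038. The number that passed was 5 without control replicate 2, control replicate 3 or FAM60A replicate 3. GNA11, a Gq-class subunit and so a substrate of RGS2, fell by 0.61 (SE 0.035; limma, adjusted p = 1.08e-05), whereas its close relative GNAQ rose by 0.21 (SE 0.032; adjusted p = 0.0013). In the Gi class GNAI1 rose by 0.24 (SE 0.035) and GNAI3 fell by 0.28 (SE 0.028), and GNAI2 had -0.03 and did not pass, with a sign that depended on the probe sets used. GNAS, the Gs subunit that drives adenylyl cyclase, rose by 0.64 (SE 0.028; adjusted p = 3.72e-06), and all 5 of its probe sets lay in the highest level class. Of 16 beta and gamma subunits 0 rose and 4 fell, GNB5, GNB1 (-0.22), GNB2 (-0.21) and GNG12 (-0.14), so 25% were lower, the same share as among all genes. GNG12 lost its call when control replicate 1 (-0.10), FAM60A replicate 1 (-0.14) or FAM60A replicate 3 (-0.11) was left out. The call was also lost with the other normalizations (-0.13 and -0.11) and with the median of the probe sets, where the difference was -0.01. Of 9 cofactors and RGS anchors 22.2% passed, since 1 rose, GPSM2 (0.22), a GoLoco protein that holds Gi in its GDP state, and 1 fell, RIC8A (-0.14), a chaperone of alpha subunits.

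The effectors include adenylyl cyclases and the phospholipases C beta that Gq activates. Of 13 measured 4 rose and 2 fell, with a median of 0.04, and the share that passed was 46.2%, against 44.9% of all genes. PLCB3 rose by 0.72 (SE 0.032; limma, adjusted p = 4.07e-06) and PLCB4 by 0.65 (SE 0.037; adjusted p = 1.03e-05), and PLCB1 rose by 0.22, a call lost without control replicate 1 or 2 or FAM60A replicate 2 or 3 (0.16 to 0.21). PLCB1 also lost its call with the median of its probe sets (0.15). PLCB2 had 0.10 and did not pass. ADCY9 fell by 0.63 (SE 0.060; adjusted p = 1.16e-04) and ADCY3 rose by 0.37 (SE 0.033; adjusted p = 9.69e-05). ADCY2 fell by 0.09 (adjusted p = 0.047), a call lost without any 1 array other than control replicate 1 (-0.10 to -0.08) and with a replicate block, another normalization or most other gene summaries. The other 6 cyclases did not pass. Of 8 receptor kinases and arrestins 3 rose and 2 fell (62.5%, against 44.9% of all genes). ARRB1, an arrestin that uncouples receptors from G proteins, rose by 0.53 (SE 0.045), GRK2 rose by 0.18, and the receptor kinases GRK4 and GRK6 fell by 0.47 and 0.42.

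Downstream of cAMP, 8 of 21 genes of protein kinase A, the cAMP phosphodiesterases and the CREB factors rose and 5 fell, with a median of 0.01, so 61.9% passed against 44.9% of all genes. The catalytic subunit PRKACA fell by 0.55 (SE 0.040; limma, adjusted p = 3.16e-05) and the regulatory subunit PRKAR1A by 0.61 (SE 0.043; adjusted p = 2.89e-05). PRKAR1B, another regulatory subunit, rose by 0.48 (SE 0.037), and CREBBP, the acetyltransferase that CREB recruits, rose by 0.83 (SE 0.048; adjusted p = 1.09e-05). Genes that cAMP and calcium signals switch on within minutes, as they do RGS2, did not move as one. Of 11 measured 3 rose and 3 fell (54.5%), with a median of 0.07. EGR1 fell by 0.60 (SE 0.030; adjusted p = 6.37e-06) and FOS by 0.49 (SE 0.033; adjusted p = 2.56e-05), whereas DUSP1 rose by 0.39 (SE 0.032; adjusted p = 5.75e-05) and ATF3 by 0.24 (SE 0.035). The nuclear receptors NR4A1, NR4A2 and NR4A3 had -0.03, 0.14 and 0.10 and did not pass.

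**Figure D4:**
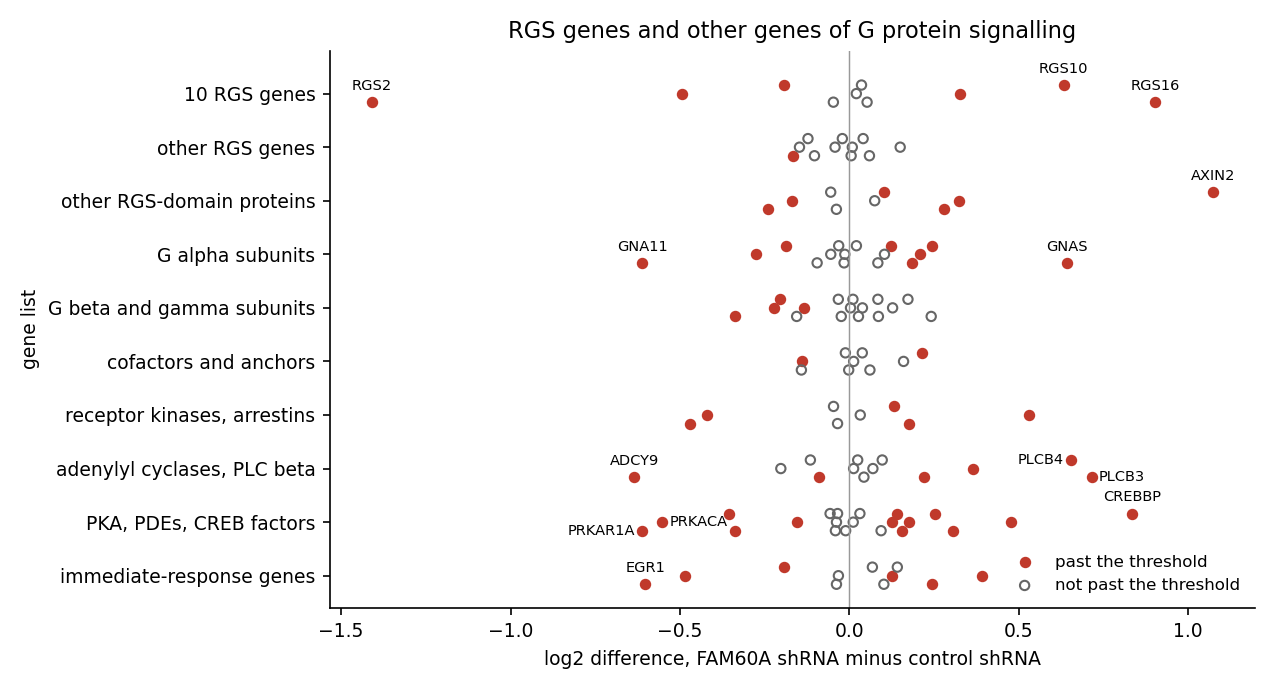
Log2 difference (FAM60A shRNA minus control shRNA, 3 arrays each) of the 10 RGS genes and of the genes in 9 other lists of G protein signalling, 1 point per gene, filled red where the adjusted p was under 0.05. RGS2 at -1.41 lies lowest of all genes drawn, and AXIN2 at 1.07 highest.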

How the data were processed

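Total RNA of 6 samples, grouped by their titles, was hybridised to 1 Affymetrix array each. The deposited values are log2 signals of 49395 probe sets that the authors made with RMA (background correction, quantile normalization and summary of probes), per the submitters' processing notes. The sources used here do not give the program or its version. The logarithm is read as base 2, the usual scale of RMA, since the table names none. Every probe set had a median within 5e-07 of 0 across arrays, so the values were centred and differences between arrays are unaffected. The class of the level before centring was read from the rounding step of the values, which doubles at 4 and 8, with a tolerance of 5e-08, and 146 probe sets had none.

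Probe sets with 1 symbol (44994, against 1832 with several and 2569 with none) were averaged per gene. The test was limma 3.58.1 (lmFit, then eBayes; R 4.3.3), with Benjamini-Hochberg adjustment over 18132 genes and a threshold of 0.05; probe sets were fitted apart in the same way. The fit was tested on simulated data. Differences are FAM60A shRNA minus control shRNA on the log2 scale, and the number of arrays limits their precision. The RGS genes and the lists were chosen with earlier results of these data known. Named are SINHCAF, the RGS genes, up to 4 genes with the largest difference among those past the threshold in each list, the subunits and effectors central to each list, and 5 genes nearest to RGS2. Neighbouring genes, the NR4A genes and the GC and CCAAT boxes were added after values or sequences were seen. Some genes of the lists were not analysed here. Promoter windows are RefSeq's (GRCh38.p14), used with gene order for description. Protein sequences, planned for comparison, were not used here. Alternatives were other normalizations, other gene summaries, fewer probe sets, a replicate block and each array left out.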

Additional observations from a re-analysis of the deposited data

How the results depend on the processing

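Under 13 alternatives, between 6999 and 8412 genes passed the threshold (7366 to 7699 with 1 array left out, against 8136), 5 to 7 RGS genes (6 with any array left out) and 40 to 58 of up to 112 genes in the 9 lists of G protein signalling (40 to 47 with an array left out, against 50, which is 44.6%, near the 44.9% of all genes). SINHCAF stayed between 1.12 and 1.31 (1.22 to 1.27 with an array left out). RGS2 stayed between -1.65, after another quantile normalization, and -1.38, RGS16 between 0.82 and 1.46, RGS10 between 0.61 and 0.66 and RGS19 between -0.52 and -0.47, all past the threshold. The median absolute difference of the RGS genes, 0.26, was 0.53 with the probe set of largest variance, a choice that favours large group differences. It was 0.16 without x_at and s_at probe sets and 0.44 without the lowest level class, which drops RGS17. With an array left out it was 0.24 to 0.28. Among the RGS genes, signs turned only for those that did not pass. Without the lowest level class, RGS4 had -0.054 and RGS14 -0.050. With an array left out, RGS4 ran from -0.0090 to 0.065, RGS14 from -0.0074 to 0.074 and RGS17 from -0.021 to 0.11. Of the other genes, GNAI2, which did not pass, had 0.16 with the probe set of largest variance and 0.049 without x_at and s_at probe sets. ACTA2, a smooth muscle marker that passed with a fall of 0.25, had 0.039 without x_at and s_at probe sets. The causes were not tested, beyond the probe sets that each alternative removes. Samples with the same replicate number were not shown to be paired: the correlations of their deviations from the group means were 0.16, 0.059 and 0.078, although each array correlated best with its own number, a hint from the data and not the design. With the replicate number as a block, 8170 genes, 6 RGS genes and 49 list genes passed, RGS2 stayed at -1.41 and SINHCAF at 1.24. Low level classes limit what RGS4 and RGS17 can show.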
